A study of Mus musculus with 6 samples.

Results

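To describe the vascular growth factor system of the periosteum after fracture, 9 genes of the 30406 listed for all libraries were followed: the ligand genes Vegfa, Pgf, Vegfc and Vegfd, the receptor tyrosine kinase genes Flt1, Kdr and Flt4, and the co-receptor genes Nrp1 and Nrp2. They were chosen by name as ligands and receptors of the VEGF family, and all 9 were measured. The data are single-nucleus RNA-seq of the tibial periosteum of wild-type C57BL6 mice (C57BL/6ScNj in the study's methods) aged 12 weeks, males and females mixed, with 2 libraries of uninjured periosteum and 2 of day 3, 1 of day 5 and 1 of day 7 after an open, non-stabilized tibial fracture. Each library pooled 4 mice for uninjured bone and 4 to 9 mice for fractured bone, so that animals cannot be separated and the spread between libraries is a spread between pools. Bone marrow was flushed and the periosteum was scraped, alone in uninjured bone and with the hematoma after fracture, and nuclei were sorted by a DNA dye.

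VEGF ligands are secreted dimers that drive the growth of blood and lymphatic vessels. VEGF-A binds VEGFR-2, encoded by Kdr, the main signalling receptor of blood endothelium, and VEGFR-1, encoded by Flt1, which binds VEGF-A and placental growth factor (Pgf) and can act as a decoy. VEGF-C and VEGF-D are cut by proteases into forms that bind VEGFR-3, encoded by Flt4, the receptor of lymphatic endothelium, and the neuropilins Nrp1 and Nrp2 hold VEGF ligands on the cell surface and also bind class 3 semaphorins. In bone repair VEGF-A is made by hypertrophic chondrocytes and osteoblasts, and vessels invade the callus along it.

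After filtering, 8073 of 13551 barcodes were kept, 1837 nuclei in myogenic clusters were set aside, and the remaining 6236 nuclei fell into 21 populations. These were named by marker genes that include none of the 9 genes, and the 9 genes were left out of the clustering of all libraries together. They were not left out of an earlier clustering within each library, which served only to remove myogenic clusters by myogenic markers. The libraries held between 1499281 and 29796296 UMIs (unique molecular identifiers, counts of captured transcripts), with a median per barcode of 892 at day 7 to 2806 at day 5. Uninjured library 1 was the smallest, with 644 nuclei kept and 20 immune-like nuclei. The filter removed most from day 3 library 2 and from the day 7 library, where 1720 of 4712 and 1351 of 3448 barcodes were kept. Uninjured library 1 and the libraries of days 5 and 7 carry the header of Cell Ranger 6.0.0 and the other 3 that of 7.1.0, so that a comparison without uninjured library 1 is also one within a single version. 18 barcodes occurred in more than 1 library, 4 of them among the kept nuclei. Endothelial-like nuclei made up 44.9% and 28.6% of the non-myogenic nuclei in the uninjured libraries, 10.8% and 5.00% at day 3, then 11.4% at day 5 and 6.95% at day 7, and their 8 endothelial markers were all detected in every library. Stromal nuclei, which comprise skeletal stem/progenitor cell-like (SSPC-like), fibroblast-like, injury-induced fibrogenic cell-like (IIFC-like), osteoblast-, chondrocyte- and tendon-like nuclei and an unnamed cluster led by Itgbl1 and Prr16, made up 28.5% and 44.3%, then 40.4% and 22.6%, 57.2% and 74.2%. Immune-like nuclei made up 4.22% and 8.14% in uninjured periosteum and 38.8% and 61.9% at day 3, with 26.1% at day 5 and 13.1% at day 7. Levels below are given in CPM, the UMIs of a gene per 1000000 UMIs of that population in that library, in the order uninjured libraries 1 and 2, day 3 libraries 1 and 2, day 5 and day 7. Intervals in brackets are exact Poisson 95% intervals and cover counting error only. The counts come from the 3′ ends of transcripts, so that the splice forms of VEGF-A and the soluble form of VEGFR-1 were not separated, and levels of different genes are not compared.

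Vegfc and Flt1 were the 2 genes of the 9 that were lower at day 3 over all non-myogenic nuclei, and the 250 bases before their transcription starts are shown to place both in the genome (RefSeq gene starts, GRCm38.p6). Capitals mark the core GGAA of the motif bound by ETS factors such as Erg and Fli1, which are known regulators of endothelial genes, searched as GGAA or TTCC on either strand.
Flt1, chr5:147726012-147726261, minus strand: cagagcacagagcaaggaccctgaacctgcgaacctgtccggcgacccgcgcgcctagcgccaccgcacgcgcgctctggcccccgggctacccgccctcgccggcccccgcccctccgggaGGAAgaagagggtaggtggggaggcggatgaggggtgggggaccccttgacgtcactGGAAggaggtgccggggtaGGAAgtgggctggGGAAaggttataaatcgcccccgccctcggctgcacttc
Vegfc, chr8:54077282-54077531, plus strand: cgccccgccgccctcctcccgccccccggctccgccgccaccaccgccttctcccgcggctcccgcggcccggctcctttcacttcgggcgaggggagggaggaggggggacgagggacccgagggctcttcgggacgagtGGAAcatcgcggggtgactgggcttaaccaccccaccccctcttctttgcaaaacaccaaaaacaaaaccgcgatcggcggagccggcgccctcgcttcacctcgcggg
The Flt1 window held 4 matches to the ETS core and the Vegfc window 1. Of the windows of the same length before 32851 RefSeq starts, 33.4% held at least as many as Flt1. At least 1 match was present in 93.4% of them. The core of the hypoxia response element, searched as ACGTG or GCGTG on either strand, was found 1 time before Flt1 and 0 times before Vegfc, and in 38.6% of all windows. A match is a description of the letters and not a measured binding site. In the gene annotation (GENCODE M21, GRCm38), Flt1 (ENSMUSG00000029648) spans chr5:147561604-147726011 on the minus strand and Vegfc (ENSMUSG00000031520) spans chr8:54077606-54187096 on the plus strand, and neither is overlapped by another gene on its strand.

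Each of the 9 genes had its own distribution over the populations. Among the non-myogenic populations, Vegfa was by mean level spread over adipocyte-, chondrocyte-, IIFC- and macrophage-like nuclei. The myogenic nuclei set aside also held Vegfa, at levels given below. Vegfd was highest in SSPC-like nuclei, Vegfc in arterial-like endothelium, Flt1 and Kdr in blood endothelium and Flt4 in lymphatic-like endothelium. Nrp1 was highest in Mrc1-led macrophage-like nuclei and Nrp2 in osteoclast-like nuclei. Populations were built from the same nuclei and were not tested against each other.

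Vegfa, the ligand of blood vessel growth, had its highest level in adipocyte-like nuclei of the uninjured periosteum, with 933 CPM [634–1325] from 14 nuclei in library 1 and 579 [483–687] from 22 nuclei in library 2. These nuclei were 2.95% and 2.42% of the non-myogenic nuclei and held 37.3% and 38.6% of the Vegfa UMIs of the non-myogenic nuclei. The myogenic nuclei set aside are not in that total, and their Vegfa level is given below. All 5 adipocyte markers were detected in the adipocyte-like nuclei in both libraries. After fracture, 1 to 6 adipocyte-like nuclei remained per library, too few to give a level.

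Chondrocyte-like nuclei, which were at most 5 per library before day 5, had Vegfa at 72.1 CPM [56.2–91.1] in 172 nuclei at day 5 and 241 [202–285] in 245 nuclei at day 7, with all 6 chondrocyte markers detected at both times. The 2 intervals did not overlap, but each day has 1 library, so that the difference has no replicate check. With each nucleus thinned to 500 UMIs, 6.395% of chondrocyte-like nuclei at day 5 and 11.8% at day 7 had a Vegfa UMI, with exact 95% intervals of 3.24–11.2% and 8.07–16.6%, against 0% to 1.56% of endothelial-like nuclei over the 6 libraries. The median depth before thinning was 4694 and 1575 UMIs in chondrocyte-like nuclei at days 5 and 7 and 1048 to 6824.5 in endothelial-like nuclei.

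IIFC-like nuclei, the fibrogenic state entered by stromal cells after fracture, had Vegfa at 114 [68.8–179] and 190 [158–226] CPM at day 3, then 60.4 at day 5 and 41.5 at day 7. The day 3 libraries lay above the later ones, and the uninjured libraries had 11 and 18 such nuclei. In the unnamed stromal cluster led by Itgbl1 and Prr16, Vegfa was at 199 and 109 CPM in the uninjured libraries and between 22.0 and 47.8 CPM in the 4 libraries after fracture, with no overlap. Arg1-led macrophage-like nuclei held 44.2 and 148 CPM at day 3, then 134 at day 5 and 34.1 at day 7, from 5, 156, 62 and 2 UMIs, so that the 2 day 3 libraries differed as much as the days did. Capillary-like endothelium was low, between 8.82 and 21.3 CPM in every library. These levels rest on few UMIs, since all endothelial-like nuclei together held 8, 16, 1, 11, 11 and 1 Vegfa UMIs.

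Summed over all stromal nuclei, Vegfa was at 124, 85.3, 74.7, 98.3, 59.3 and 112 CPM. The day 3 libraries overlapped the uninjured ones, and the change was -0.30 ± 0.37 on the log2 scale (SE, 2 libraries against 2; adjusted p = 0.722, edgeR's quasi-likelihood test). Among the non-myogenic nuclei, the stromal share of Vegfa UMIs was 34.9% and 43.4% in uninjured periosteum, 77.8% and 44.1% at day 3, then 77.8% at day 5 and 91.0% at day 7. Stromal nuclei held 25.7%, 43.6%, 51.1%, 29.4%, 72.2% and 82.3% of all UMIs. The immune share of Vegfa UMIs was 1.20% and 3.59%, then 20.0% and 49.3%, 16.8% and 5.71%. Immune-like nuclei held 1.29%, 7.08%, 28.8%, 59.1%, 12.7% and 7.01% of all UMIs. Summed over every non-myogenic nucleus, the Vegfa level was 90.8, 85.7, 49.1, 65.5, 55.0 and 102 CPM. The day 3 values were lower than both uninjured values but did not pass the test (-0.65 ± 0.30, adjusted p = 0.252). When the myogenic nuclei were kept the change was -1.80 with an adjusted p of 0.0497: the nuclei set aside held 620 and 524 CPM of Vegfa in the uninjured libraries and 68.2 to 154 after fracture.

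**Figure D1:**
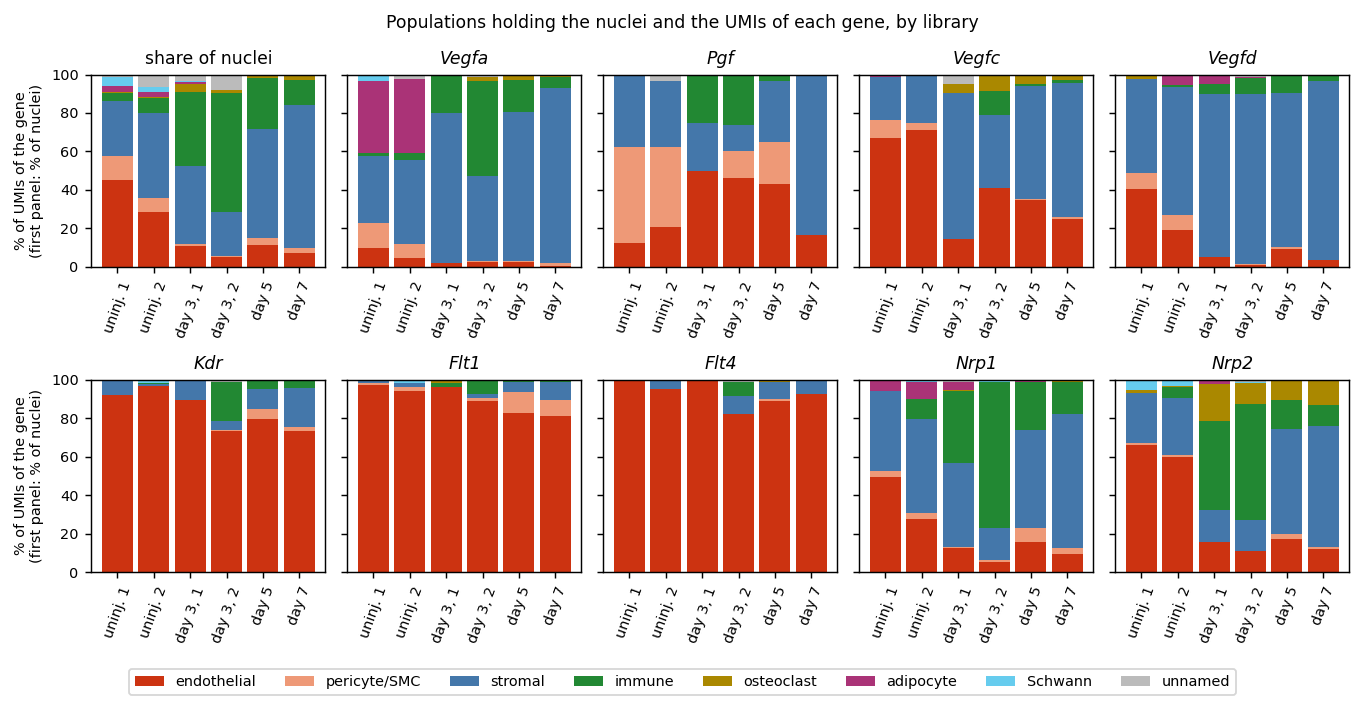
Share of the nuclei (first panel) and of the UMIs of each gene (other panels) held by each broad population, in percent, for the 6 libraries in order. The bars of Flt1, Kdr and Flt4 are mostly endothelial in every library. Those of Vegfa, Nrp1 and Nrp2 differ between libraries, and so do the shares of nuclei.

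Pgf, whose product binds VEGFR-1 and neuropilins, was scarce, with 4 to 63 UMIs per library over all non-myogenic nuclei. In capillary-like endothelium it was at 0 CPM in both uninjured libraries (89 and 98 nuclei, with upper limits of 39.3 and 11.9 CPM) and at 34.2 [4.15–124], 75.0 [43.7–120], 48.4 [31.0–71.9] and 12.3 [0.311–68.5] CPM at day 3, day 5 and day 7. These came from 2, 17, 24 and 1 UMIs. In all endothelial-like nuclei the values were 2.37, 5.00, 21.6, 46.5, 33.8 and 7.97 CPM, with both day 3 libraries above both uninjured ones, but the gene did not pass the filter on low counts there and was not tested. It was tested under 6 alternative settings, where its log2 change was 2.77 to 3.64, and 2 of them called it: without the filter on low counts (2.95, adjusted p = 0.0253) and with looser limits on nuclei (3.25, adjusted p = 0.0380). In stromal nuclei the values were 12.8, 5.88, 2.13, 3.44, 3.29 and 2.94 CPM. The stromal change minus the endothelial change was -4.34 ± 1.33 on the log2 scale, which did not pass (adjusted p = 0.0552, edgeR's quasi-likelihood interaction test). Under alternative settings 3 called it, and 5 kept its direction without a call. The sum of the non-myogenic nuclei held Pgf at 8.75, 7.44, 4.37, 7.22, 7.47 and 2.90 CPM with an adjusted p of 0.712. Pericyte/SMC-like and fibroblast-like nuclei also held it, at 24.3 and 36.1 CPM and at 31.4 and 34.8 CPM in the uninjured libraries.

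Vegfc, the ligand of lymphatic growth, had the largest log2 change of the 9 genes over all non-myogenic nuclei, where it was at 182 and 238 CPM in the uninjured libraries, 22.9 and 36.1 at day 3, then 99.1 at day 5 and 68.7 at day 7. The day 3 libraries lay below all the others. The fall was 7.18-fold (log2 fold change -2.84 ± 0.32, SE; adjusted p = 0.0207, edgeR's quasi-likelihood test) and was called under all 10 alternative settings, with -2.96 and an adjusted p of 0.0261 without uninjured library 1. In a sum over a tissue, fewer cells of a type and less RNA per cell cannot be told apart, and the sum of the 8 endothelial markers moved in the same direction, from 3754 and 2530 to 534 and 603 CPM.

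Within stromal nuclei Vegfc was at 158 and 132 CPM in the uninjured libraries, 34.2 and 46.7 at day 3, then 81.0 at day 5 and 58.2 at day 7. The 2 groups did not overlap and the fall of 3.70-fold passed the test (-1.89 ± 0.37, adjusted p = 0.0153). It was called under 13 of 14 alternatives, and without uninjured library 1 it was -1.76 with an adjusted p of 0.0568. The stromal class was made of different clusters in the 2 groups: SSPC-like (26.7% and 23.6%), fibroblast-like (27.4% and 9.43%) and the Itgbl1- and Prr16-led cluster (26.7% and 29.3%) held most of it in uninjured periosteum, and IIFC-like (36.3% and 34.3%) and the same unnamed cluster (29.5% and 31.8%) at day 3. Within the unnamed cluster Vegfc was at 239 and 123 CPM in uninjured periosteum, 40.2 and 47.8 at day 3, then 91.8 at day 5 and 110 at day 7, so that its day 3 values were the lowest there too. The sum of the 8 endothelial markers in the stromal nuclei moved the same way, from 230 and 91.1 to 42.7 and 64.9 CPM, and its part in the result was not tested. The myogenic markers moved from 584 and 722 to 421 and 329 CPM in the stromal sums, and their part in the result was not tested beyond leaving out nuclei with a myogenic UMI, where it was -2.11 with an adjusted p of 0.0491.

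In endothelial-like nuclei Vegfc was at 263, 550, 32.5, 208, 366 and 279 CPM. The difference of -1.63 ± 0.54 at day 3 did not pass (adjusted p = 0.142). The 2 day 3 libraries stood far apart, and over 14 alternatives the value ranged from -3.64 to -1.10, with 1 call, made without the filter on low counts. By cluster, arterial-like endothelium had the highest level, at 828 [620–1082] and 1799 [1626–1986] CPM in uninjured periosteum, 373 (4 nuclei) and 1308 (6 nuclei) at day 3, then 991 (16 nuclei) at day 5 and 459 (5 nuclei) at day 7. Its nuclei held 53 of 111 and 395 of 660 endothelial Vegfc UMIs in the uninjured libraries, but 52 of 292 at day 5 and 5 of 35 at day 7, when capillary-like nuclei held 133 and 27. Capillary-like endothelium was at 106 and 263 CPM, then 0 (limit 63.1) and 48.5 at day 3 and finally 268 at day 5 and 332 at day 7, with both day 3 libraries below the other 4. The arterial-like part of the endothelial-like nuclei was 17.4% and 20.8% in uninjured periosteum and 6.49% to 10.3% after fracture. Lymphatic-like endothelium, whose receptor VEGF-C activates, had 7.13 CPM in uninjured library 2 and 0 in the other 5 libraries. These 5 had 23, 2, 4, 26 and 6 of these nuclei, with upper limits of 93.2, 616, 141, 66.4 and 662 CPM, so that absence is not shown. Thinned to 500 UMIs, a Vegfc UMI was found in 8.11% and 44.4% of arterial-like nuclei in the uninjured libraries, against 0% to 1.41% of immune-like nuclei over the 6 libraries, whose median depths were 1344 to 10794 and 561 to 3810.5 UMIs. The endothelial share of all Vegfc UMIs was 66.9% and 71.1% in uninjured periosteum, 14.3% and 41.2% at day 3, then 34.9% at day 5 and 24.6% at day 7. Endothelial-like nuclei held 46.1%, 30.8%, 10.1%, 7.13%, 9.47% and 6.07% of the UMIs of all genes.

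Vegfd, the second ligand of VEGFR-3, had 48.9% to 93.1% of its UMIs in stromal nuclei, which held 25.7% to 82.3% of all UMIs. At day 5 the stromal part was 79.7% of Vegfd UMIs against 72.2% of all UMIs. In uninjured library 1 endothelial-like nuclei held 40.4% of Vegfd UMIs. In SSPC-like nuclei it was at 90.8 [33.3–198], 223 [186–267], 142 [61.4–280], 221 [164–291], 125 [88.2–173] and 62.6 [20.3–146] CPM, and the day 3 values lay between the uninjured ones. In all stromal nuclei it was at 98.0, 126, 36.3, 76.7, 17.4 and 15.9 CPM. All 4 libraries after fracture lay below both uninjured ones, but the day 3 difference of -1.06 ± 0.40 did not pass (adjusted p = 0.146), and the SSPC-like part of the stromal nuclei was 26.7% and 23.6% in uninjured periosteum and 11.6% and 11.1% at day 3. No chondrocyte-like nucleus had a Vegfd UMI at 500 UMIs, in 172 nuclei at day 5 and 245 at day 7, with exact upper bounds of 2.12% and 1.49%. In endothelial-like nuclei Vegfd was at 45.1, 51.7, 10.8, 4.05, 15.03 and 7.97 CPM, with 1 and 2 UMIs at day 3, and the difference of -3.28 ± 0.77 did not pass (adjusted p = 0.0501). It passed in 2 of 13 alternatives, without the filter on low counts and with the looser limits on nuclei. Over all non-myogenic nuclei it was at 51.4, 82.3, 21.8, 25.5, 15.8 and 14.0 CPM (-1.52 ± 0.37, adjusted p = 0.0616).

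**Figure D2:**
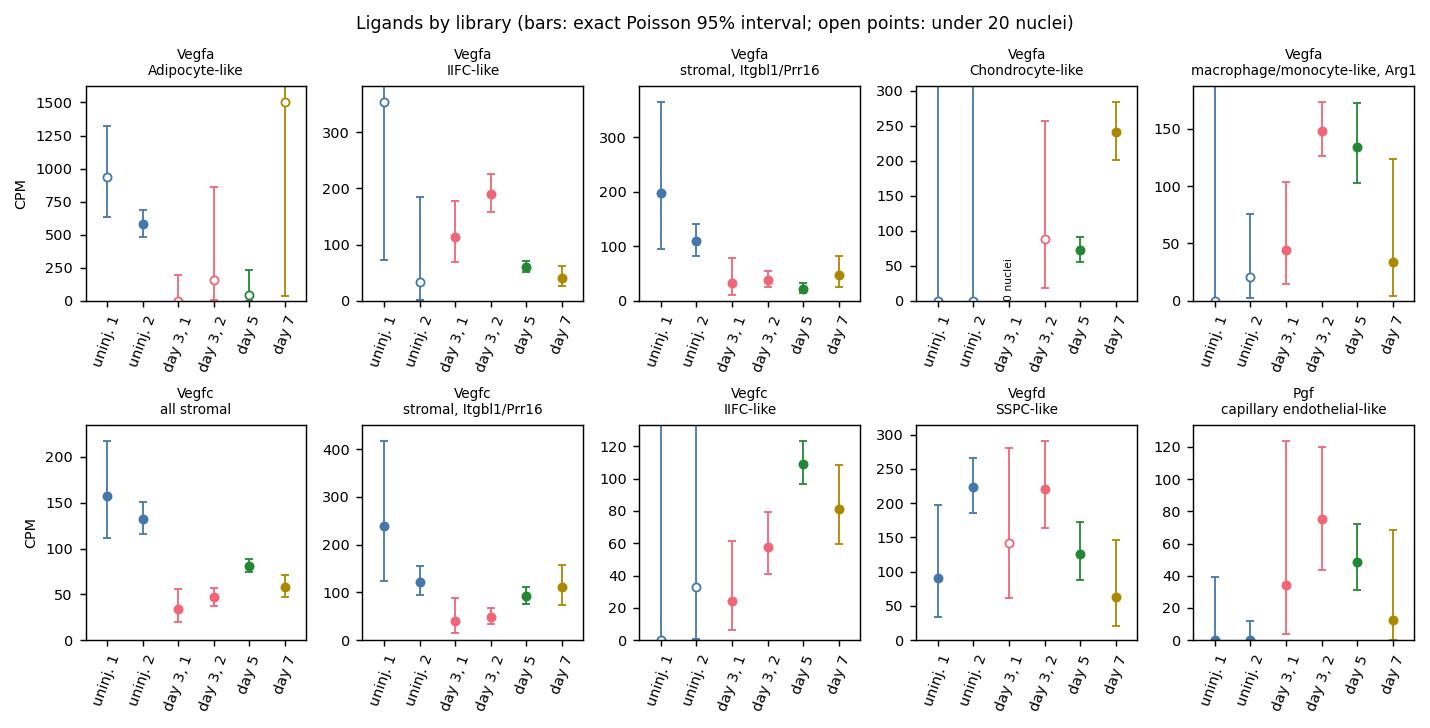
Level of the ligand genes in CPM (linear axes) for each library, in the populations where they were highest. Bars are exact Poisson 95% intervals, some of which run past the top of a panel, and open points are populations with under 20 nuclei in that library. Vegfc in stromal nuclei sits lowest at day 3, with 34.2 and 46.7 CPM against 132 and 158 in uninjured periosteum.

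The receptors were measured mainly in endothelial-like nuclei. Flt1 was at 1042, 1075, 1136, 1174, 1314 and 925 CPM in all endothelial-like nuclei. The 2 groups lay close to each other, and the change at day 3 was 0.04 ± 0.26 (adjusted p = 0.970). Over all non-myogenic nuclei, in contrast, Flt1 was at 493 and 351 CPM in the uninjured libraries and at 119 and 94.0 at day 3, with 151 at day 5 and 69.2 at day 7. All libraries after fracture lay below the uninjured ones and the fall at day 3 was 4.01-fold (-2.004 ± 0.377, adjusted p = 0.0358, edgeR's quasi-likelihood test). It was called under 8 of 10 alternatives. Without uninjured library 1 it was -1.65 with an adjusted p of 0.113, and without day 3 library 2 it was -1.69 with an adjusted p of 0.0793. Endothelial-like nuclei, the population that held 81.1% to 97.3% of the Flt1 UMIs of every library, were 10.8% and 5.00% of the nuclei at day 3 against 44.9% and 28.6%.

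Between the endothelial clusters Flt1 was not uniform. Capillary-like nuclei held 1778, 1378, 1215, 1085, 1402 and 1032 CPM, with both day 3 libraries below both uninjured ones, and in that cluster alone the change was -0.59 (adjusted p = 0.503). Venous- and sinusoidal-like nuclei held 1019, 1313, 1148, 1456, 1500 and 799 CPM. Arterial-like nuclei held 484 [329–687] and 715 [608–836] in the uninjured libraries and 1491 [644–2938], 1180 [927–1482], 1182 [906–1515] and 917 [440–1687] after fracture, above both uninjured values in all 4, from 4, 6, 16 and 5 nuclei. Lymphatic-like nuclei held 328 and 64.2 CPM in uninjured periosteum and 0 in the 4 libraries after fracture, which had 2, 4, 26 and 6 of these nuclei. Thinned to 500 UMIs, 29.8% to 50.0% of capillary-like nuclei had a Flt1 UMI, against 0% to 2.24% of stromal nuclei. The median UMIs per nucleus were 741 to 6601 and 1373 to 5405.

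Pericyte/SMC-like nuclei, the mural cells that wrap vessels, also held Flt1. It was at 30.4 [9.86–70.9] and 75.1 [48.6–111] CPM in uninjured periosteum, 0 (4 nuclei, limit 425) and 130 (9 nuclei) at day 3, then 494 [415–583] in 72 nuclei at day 5 and 269 [139–470] in 32 nuclei at day 7. The endothelial marker sum in these nuclei was also higher at day 5, at 689 CPM against 115 and 96.2 in uninjured periosteum, and 179 at day 7. These nuclei held 13 Kdr UMIs at day 5 against 0 and 1 before fracture, and 26 Tek UMIs against 9 and 3. The part of endothelial RNA in the Flt1 level was not tested. Flt1 UMIs of these nuclei were 10.9% of the gene's total at day 5 and 8.39% at day 7. With 1 library on each day this has no replicate check.

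Kdr, the main signalling receptor of VEGF-A, was at 85.5 and 232 CPM in endothelial-like nuclei of the uninjured libraries, 184 and 308 at day 3, then 258 at day 5 and 263 at day 7. The uninjured values stood apart from each other and overlapped the day 3 values (0.56 ± 0.43, adjusted p = 0.591). In capillary-like nuclei it was at 149 [81.5–250], 244 [192–306], 223 [118–381], 463 [379–561], 302 [256–355] and 319 [209–468] CPM. In arterial-like nuclei it was at 0 [0–57.6] and 13.7 [2.82–39.9] in the uninjured libraries and at 186, 239, 95.3 and 91.7 after fracture, from 1, 15, 5 and 1 UMIs. The arterial-like libraries after fracture thus all lay above the uninjured ones, on few nuclei. In the sum of the non-myogenic nuclei Kdr was at 42.7, 73.9, 20.7, 29.9, 30.6 and 21.8 CPM (-1.23 ± 0.39, adjusted p = 0.116). Its UMIs were 73.3% to 96.5% endothelial. At 500 UMIs 4.49% [1.24–11.1%] and 8.16% of capillary-like nuclei in the uninjured libraries had a Kdr UMI, against 8.33% [1.03–27.0%] and 22.6% [9.59–41.1%] at day 3, then 14.7% at day 5 and 14.9% at day 7, with at most 0.367% of stromal nuclei.

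Flt4, the receptor of VEGF-C and VEGF-D, marked lymphatic-like endothelium in every library, at 404, 763, 1169, 1150, 648 and 897 CPM from 23, 28, 2, 4, 26 and 6 nuclei. The next population, capillary-like endothelium, had a mean of 57.0 ± 20.6 CPM (SD, n = 6 libraries), and the 2 ranges did not overlap. In all endothelial-like nuclei Flt4 was at 68.8, 111, 108, 119, 91.4 and 104 CPM, with no difference beyond the spread at day 3 (0.23 ± 0.38, adjusted p = 0.853). Over all non-myogenic nuclei it was at 31.7, 35.9, 10.9, 10.4, 9.72 and 6.78 CPM. All libraries after fracture lay below the uninjured ones but the change of -1.72 ± 0.43 did not pass (adjusted p = 0.0640). At 500 UMIs, 21.7% to 75.0% of lymphatic-like nuclei had a Flt4 UMI and 0% to 0.346% of stromal nuclei.

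Nrp1, the co-receptor of VEGFR-2, was held by endothelium, stroma and macrophages. In Mrc1-led macrophage-like nuclei it was at 968 CPM in uninjured library 2, 484 and 1206 at day 3, then 1264 at day 5 and 1356 at day 7, and at 0 in uninjured library 1, which had 8 of these nuclei. At 500 UMIs 20.0% to 45.0% of them had a Nrp1 UMI in the 5 libraries with at least 20 nuclei, while 0 of 89 lymphatic-like nuclei had one, with median depths of 561 to 6203 and 927 to 5584 UMIs. Capillary-like endothelium was at 532, 453, 565, 728, 856 and 541 CPM. In all endothelial-like nuclei Nrp1 was at 235, 394, 400, 494, 736 and 502 CPM (0.42 ± 0.30, adjusted p = 0.557), and in stromal nuclei at 354, 487, 271, 370, 315 and 281 CPM (-0.47 ± 0.33, adjusted p = 0.483). The stromal groups overlapped, and the endothelial ones did not but nearly met, at 394 and 400 CPM. The unnamed stromal cluster led by Itgbl1 and Prr16 held 815 and 948 CPM before fracture and 362 to 408 in the 4 libraries after it.

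Pericyte/SMC-like nuclei held 42.5 [17.1–87.6] and 153 [114–202] CPM of Nrp1 in uninjured periosteum, 970 [858–1092] at day 5 and 516 [327–774] at day 7. These later values lay above both uninjured ones, and the day 3 libraries had only 4 and 9 such nuclei. The endothelial markers of these nuclei, given with Flt1, were also higher on both days than in uninjured periosteum, and their part was not tested. With all populations summed, Nrp1 was at 220, 437, 321, 641, 446 and 332 CPM (0.51, adjusted p = 0.527). Immune-like nuclei held 0% and 10.6% of its UMIs in the uninjured libraries and 37.8% and 75.6% at day 3, and endothelial-like nuclei 49.3% and 27.8%, then 12.6% and 5.49%. Of all UMIs, immune-like nuclei held 1.29% and 7.08%, then 28.8% and 59.1%, and endothelial-like nuclei 46.1% and 30.8%, then 10.1% and 7.13%. Most Nrp1 UMIs of the uninjured libraries were endothelial or stromal, and most of day 3 library 2 were immune.

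Nrp2, the co-receptor of VEGFR-3, had its highest mean level in osteoclast-like nuclei, the bone-resorbing cells, although at day 7 the 6 lymphatic-like nuclei lay above them. In osteoclast-like nuclei it was at 1884 [1398–2484] and 3088 [2761–3443] CPM at day 3 (15 and 19 nuclei), 2331 [2095–2586] at day 5 and 1459 [1116–1874] at day 7, and the uninjured libraries had 3 nuclei each. At 500 UMIs 52.4% to 78.9% of these nuclei had a Nrp2 UMI after fracture, against 0 of 37, 54, 4, 6 and 16 arterial-like nuclei in the libraries up to day 5 and 1 of 5 at day 7. Their median depths were 1545 to 4766 and 1344 to 10794 UMIs. Lymphatic-like endothelium held 202, 1006, 501, 766, 1729 and 2333 CPM, venous- and sinusoidal-like endothelium 697, 1054, 618, 873, 974 and 653 CPM, and osteoblast-like nuclei 704 in uninjured library 2, 979 in day 3 library 2, 899 at day 5 and 568 at day 7. In all endothelial-like nuclei Nrp2 was at 475, 751, 444, 646, 769 and 439 CPM (-0.25 ± 0.30, adjusted p = 0.773).

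In stromal nuclei Nrp2 was at 341, 260, 89.7, 231, 316 and 174 CPM. Both day 3 libraries lay below both uninjured ones, but the change of -0.99 ± 0.40 did not pass (adjusted p = 0.181). It passed only without day 3 library 2 (-1.59, adjusted p = 0.0454). Over all non-myogenic nuclei it was at 330, 387, 282, 424, 420 and 227 CPM (-0.06, adjusted p = 0.929). The endothelial share of its UMIs went from 66.2% and 59.7% to 15.9% and 10.8% at day 3. Of all UMIs these nuclei held 46.1% and 30.8%, then 10.1% and 7.13%. The immune share went from 0% and 5.83% to 46.5% and 60.0%, where immune-like nuclei held 1.29% and 7.08%, then 28.8% and 59.1% of all UMIs. Osteoclast-like nuclei alone held 19.4% and 11.02% at day 3, against 2.90% and 1.51% of all UMIs.

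Next, the 9 genes were compared as a group with all genes tested. Over all non-myogenic nuclei all 9 passed the filter on low counts and 2 were lower at day 3, with a median log2 fold change of -1.23. Of the 12668 genes tested 8.19% were called in either direction and 5.71% were called lower, and the median of all genes tested was 0.01. In stromal nuclei 6 of the 9 were tested and 1 was lower (median -1.03), where 8.74% of 10065 genes were called, 3.72% in the higher and 5.03% in the lower direction (median 0.01). Pgf, Kdr and Flt4 were not tested there. In endothelial-like nuclei 7 were tested and 0 were called by edgeR, with 2 at an unadjusted p under 0.05 (Vegfc and Vegfd) and a median of 0.04, where 3.84% of 6818 genes were called, 1.79% in the higher and 2.05% in the lower direction (median -0.01). In immune-like nuclei Vegfa, Nrp1 and Nrp2 were tested and 0 were called, 0 of them at an unadjusted p under 0.05, where 0.575% of 5042 genes were called. Their log2 changes were 0.10 ± 0.81, 0.72 ± 0.95 and 1.12 ± 0.82, and uninjured library 1, with 11816 UMIs in its immune-like nuclei, held 0 UMIs of both neuropilins.

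**Figure D3:**
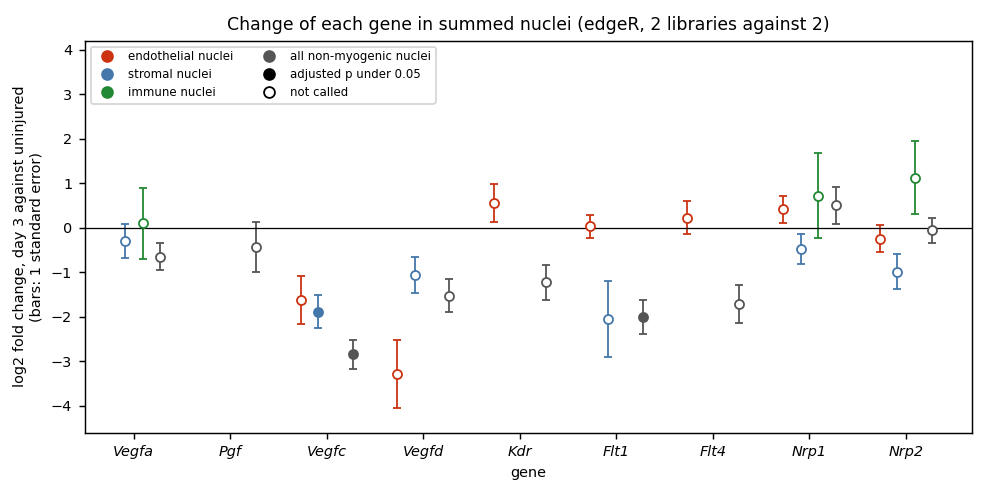
Log2 fold change of each gene from uninjured to day 3 in the summed nuclei of each population, with bars of 1 standard error (edgeR, 2 libraries against 2). Vegfc lies below 0 in every population where it was tested, while Flt1 lies at 0.04 in endothelial-like nuclei and at -2.004 over all non-myogenic nuclei.

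To compare the populations directly, the stromal change was set against the endothelial change with the library as a block. 0 of the 9 genes were called by edgeR and 4 had an unadjusted p under 0.05, where 4.43% of 8908 genes were called. The 4 were Pgf (above), Flt1 (-1.88 ± 0.60, adjusted p = 0.0724), Vegfd (2.50 ± 0.82, adjusted p = 0.0839) and Nrp1 (-0.79 ± 0.37, adjusted p = 0.332). For Vegfc the 2 populations differed by -0.13 with an adjusted p of 0.970, so that a call in stromal nuclei alone is not a difference between stromal and endothelial nuclei.

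The rest of the pathway was read in the same comparisons. Its lists share genes, so that a gene such as Angpt2 counts in more than 1 list. With each gene counted 1 time, 5 of 85 tested pathway genes were called in endothelial-like nuclei (5.88%, against 3.84% of all genes). In stromal nuclei 14 of 84 were called (16.7%, against 8.74% of all genes). In endothelial-like nuclei 1 of 4 tested angiopoietin and Tie genes rose, against 1.79% of all genes called higher, with a median log2 fold change of -0.48 over the 4. This was Angpt2, a Tie2 ligand made by activated endothelium, at 26.1 and 33.3 CPM in uninjured periosteum, 141 and 156 at day 3, then 87.7 at day 5 and 23.9 at day 7. The groups did not overlap (2.19 ± 0.39, adjusted p = 0.0206), and the call was lost without uninjured library 1 (adjusted p = 0.237) and without either day 3 library. Angpt1, the opposing ligand, did not pass (-2.08, adjusted p = 0.132), nor did Tek, which encodes Tie2 (-0.41).

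Among 15 tested genes of tip cells, the leading cells of a sprout, 2 rose (13.3%, against 1.79% of all genes called higher; median 0.49), namely Angpt2 and Apln, which encodes a peptide secreted by tip cells. Apln was at 0, 1.67, 130, 24.3, 68.9 and 15.9 CPM from 0, 2, 12, 12, 55 and 2 UMIs (5.35 ± 1.24, adjusted p = 0.0495), and it was called under 5 of 10 alternatives. Dll4, a Notch ligand that restrains sprouting, did not pass (1.09, adjusted p = 0.276). Esm1, another tip cell gene, and Vegfb, the remaining family ligand, were not tested: Esm1 had 0, 0, 0, 2, 12 and 0 UMIs in endothelial-like nuclei and Vegfb 1, 9, 0, 3, 3 and 1.

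Of 6 tested genes for the processing of VEGF-C and VEGF-D 1 rose, against 1.79% of all genes called higher (list median 0.51). This was Ccbe1, a secreted cofactor of the protease that activates VEGF-C, at 0, 4.17, 64.9, 70.8, 35.1 and 23.9 CPM in endothelial-like nuclei (4.36 ± 0.78, adjusted p = 0.0207). It was called under 9 of 11 alternatives, and the call was lost without uninjured library 1 and without day 3 library 1. It is also a leading gene of an IIFC-like cluster, and the sum of the 8 IIFC markers in the endothelial-like nuclei was 159, 549, 389, 911, 882 and 742 CPM, whose part in the result was not tested. Of 27 tested genes of receptor signalling 1 rose and 1 fell (7.41%, against 3.84% of all genes called; median -0.00). Prkca, a protein kinase C downstream of VEGFR-2, was at 59.3, 69.2, 281, 186, 243 and 239 CPM (1.70 ± 0.37, adjusted p = 0.0407), and Plcg2, a phospholipase, at 142, 161, 54.1, 54.6, 36.3 and 55.8 CPM (-1.60 ± 0.37, adjusted p = 0.0466). They were called under 8 of 14 and 7 of 13 alternatives. None of 12 hypoxia response genes was called in endothelial-like nuclei by edgeR, with 6 at an unadjusted p under 0.05 (median 0.04). Hif1a was at 1.29 with an adjusted p of 0.113 and Epas1 at -0.98 with an adjusted p of 0.0916. Neither the 8 neuropilin partners (median -0.19, 2 at an unadjusted p under 0.05) nor the 14 endothelial transcription factors (median -0.44, 4) held a call.

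In stromal nuclei 3 of 18 tested hypoxia response genes rose and 1 fell (22.2%, against 8.74% of all genes called; median 0.47, against 0.01 over all genes). Hif1a, the oxygen-regulated subunit of a factor that drives Vegfa in hypoxia, was at 59.7, 77.6, 393, 525, 683 and 436 CPM (2.63 ± 0.35, adjusted p = 0.00366), and was called under all 14 alternatives. Hk2, a hexokinase, was at 8.52, 5.88, 74.7, 60.0, 25.3 and 37.1 CPM (3.31, adjusted p = 0.0115), while Slc2a1, a glucose transporter, was at 264, 68.8, 12.8, 41.3, 13.5 and 20.6 CPM (-2.53, adjusted p = 0.0454). Vegfa in the same sums did not differ beyond its spread, as given above. The make-up of the stromal class differed between the groups, as given with Vegfc. Fibroblast-like nuclei were 37 of 135 and 38 of 403 stromal nuclei in the uninjured libraries, and 5 of 146 and 6 of 289 at day 3. The part of this make-up in the stromal calls was not tested.

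Of the 9 tested partners of the neuropilins 4 fell in stromal nuclei (44.4%, against 5.03% of all genes called lower; median -1.46). These were the class 3 semaphorin genes Sema3a, Sema3c, Sema3d and Sema3e, whose products bind neuropilins or plexins. Sema3d was at 175 and 256 CPM in uninjured periosteum, 8.54 and 15.2 at day 3, then 136 at day 5 and 90.6 at day 7 (-4.19, adjusted p = 0.00165). Sema3e was at 81.0, 232, 6.405, 12.8, 19.1 and 17.1 CPM (-4.05, adjusted p = 0.00450). Both were called under all 14 alternatives. The part of the changed make-up of the stromal class in these falls was not tested.

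Tek was also measured in stromal nuclei, at 170 and 112 CPM before fracture and 8.54 to 13.5 CPM in the 4 libraries after it (-3.93 ± 0.47, adjusted p = 0.00237), as the 1 call among 5 angiopoietin and Tie genes (median -0.46), against 8.74% of all genes called. The endothelial marker sum in the stromal nuclei was 230 and 91.1 CPM before fracture and 42.7, 64.9, 268 and 341 CPM after it, and its part in the result was not tested. Pcsk5, a proprotein convertase that cuts VEGF-C, was at 537, 376, 2965, 2026, 1435 and 797 CPM (2.44 ± 0.47, adjusted p = 0.0149), the 1 call of 7 processing genes (median 0.40), against 8.74% of all genes called. Of 28 signalling genes 1 fell (3.57%, against 8.74% of all genes called; median -0.18), so that the list held no more calls than all genes. This was Pik3r1, a regulatory subunit of PI3-kinase, at 1100, 627, 139, 251, 157 and 119 CPM (-2.23, adjusted p = 0.0134). Of 9 tip cell genes Nid1, a basement membrane protein, fell (179, 223, 70.5, 72.3, 47.8 and 27.6 CPM, adjusted p = 0.0224, list median -0.87), and of 8 endothelial transcription factors Nr2f2 (644, 306, 25.6, 53.1, 45.9 and 15.3 CPM, adjusted p = 0.00366) and Klf4 (adjusted p = 0.0304) fell (median -0.32). Over all genes tested in stromal nuclei 5.03% were called lower. For these genes too, the part of the changed stromal make-up was not tested.

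Across the 71 sums of at least 20 nuclei (population by library), the genes whose log2(CPM + 10) was most like each member were named among 7895 genes. For Flt1 they were Esam (Pearson r = 0.91), Ptprb (0.89) and Adgrl4 (0.89), for Kdr Emcn (0.86), Robo4 (0.85) and Bik (0.85), and for Flt4 Klhl4 (0.89), Apold1 (0.85) and Btnl9 (0.84). For Vegfd they were Slc4a4 (0.71), Efemp1 (0.71) and Serping1 (0.69), for Vegfc Il17rd (0.67), Apbb2 (0.66) and Pdgfd (0.66), and for Nrp2 Rai14 (0.63), Mtss1 (0.54) and Srgap2 (0.53). For Vegfa they were Bnip3 (0.55), Twist2 (0.54) and Wdr60 (0.50), for Pgf Nr2f2 (0.57) and Col18a1 (0.56), and for Nrp1 Ifi203 (0.59), Hdac9 (0.56) and Mgmt (0.56). Among the members the receptors went together (Kdr with Flt4 0.76, Kdr with Flt1 0.74, Flt1 with Flt4 0.54), while Nrp1 and Nrp2 did not (-0.03). The sums share libraries and depth, so that these are descriptions.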

How the data were processed

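Nuclei of 6 libraries (2 uninjured, 2 of day 3, 1 of day 5, 1 of day 7) were prepared by the study with the 10x Chromium 3′ kit. The authors deposited 1 matrix of raw UMI counts per library, made with Cell Ranger (6.0.0 or 7.1.0 by the file headers) on mm10 with intronic and exonic reads according to the study's methods and processing notes. No further normalization was applied to these counts. Library totals are given above, and all values come from these matrices.

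Barcodes were kept with at least 200 and at most 5000 genes, less than 2% of UMIs mitochondrial and less than 1.5% ribosomal, myogenic clusters were removed per library and again after integration, and the rest was integrated and clustered with Seurat 5.3.0 (20 components, resolution 1.3) in R 4.3.3. Doublets marked by Scrublet (scanpy 1.11.5), 0% to 0.930% of kept nuclei, were left in, since under 0.5% in most libraries means that the caller had little effect. The 9 genes, the other pathway genes and all markers were left out of the features of the clustering of all libraries together. The clustering per library that removed myogenic nuclei did not leave them out. Clusters were named from marker lists, and rebuilt names can differ from those of the study.

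Raw UMIs were summed per library and population, and day 3 was tested against uninjured with edgeR 4.0.16 (filterByExpr, TMM, quasi-likelihood test, Benjamini-Hochberg adjustment over all genes tested, threshold 0.05). The difference between stromal and endothelial nuclei was an interaction term with the library as a block. No test was run on day 5 or day 7, which are single libraries. The replicates are pools of animals, and their p-values measure only the spread between these pools. Shares of nuclei with a UMI were computed after thinning to 500 UMIs per nucleus, with exact Clopper-Pearson 95% intervals. The scripts were tested on simulated data. Members, pathway lists and alternatives were chosen with earlier results of these data known. Named genes were the 9 members, 9 further genes of the pathway, up to 2 called genes per list and direction in the endothelial and stromal comparisons, and the 3 genes most like each member, of which 1 is not reported here. Alternatives were DESeq2 1.42.0, RLE scaling, no filter on low counts, each library left out, resolution 0.8, no integration, 5% mitochondrial UMIs, doublets removed and myogenic clusters kept. Added after seeing the data were removal of the 6% highest doublet scores, capillary-like nuclei alone, endothelial-like nuclei without lymphatic-like ones, stromal nuclei without osteoblast-, chondrocyte- and tendon-like ones, and stromal nuclei without a myogenic UMI.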

Additional observations from a re-analysis of the deposited data

Results flagged for a closer look

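In the test of whether the day 3 change differed between stromal and endothelial nuclei, 0 of the 9 genes were called by edgeR and 4 had an unadjusted p under 0.05, which does not show that they changed alike. Of 98 other pathway genes tested 19 were called (19.4%, against 4.43% of 8908 genes). The 12 described here are among those named for the report, most of them for a call in endothelial or stromal nuclei, so that their number is no measure of the pathway. Differences are log2 stromal change minus endothelial change (edgeR's quasi-likelihood interaction test, 2 libraries against 2). The make-up of the stromal class changed, as given with Vegfc, and its part in these differences was not tested. Tek, which encodes the receptor Tie2, differed by -3.51 ± 0.46 (adjusted p = 9.29e-06), falling in stromal nuclei. Its ligand Angpt1 differed by 3.04 ± 0.68 (adjusted p = 0.00491) and Angpt2 by -3.95 ± 0.82 (adjusted p = 0.00225). The Angpt2 difference turned to 2.55 and was not called without uninjured replicate 2.

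In the group that acts on VEGF-C, the convertase gene Pcsk5 differed by 2.24 ± 0.41 (adjusted p = 0.000592) and the cofactor gene Ccbe1 by -2.83 ± 0.66 (adjusted p = 0.00672). Signalling genes differed in both directions: Plcg2 by 2.99 ± 0.63 (adjusted p = 0.00284), Prkca by -1.67 ± 0.41 (adjusted p = 0.0115) and Pik3r1 by -3.03 ± 0.42 (adjusted p = 1.9e-05). Hif1a differed by 1.497 ± 0.41 (adjusted p = 0.0263) and was called under 6 of 11 alternatives. Nid1 differed by -2.001 ± 0.44 (adjusted p = 0.00376), Sema3d by -2.80 ± 0.62 (adjusted p = 0.00405) and Nr2f2 by -2.64 ± 0.46 (adjusted p = 0.00033). Pik3r1 and Nr2f2 were called under all 11 alternatives, and Tek and Pcsk5 under 10 of 11, each losing the call without day 3 replicate 2.

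The myogenic nuclei set aside before the comparisons held Nrp2 above its level in both uninjured libraries. It was at 62.4 CPM in day 3 replicate 2, 45.8 at day 5 and 46.1 at day 7, against 5.25 and 15.2 in the uninjured libraries and 20.6 in day 3 replicate 1.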

How the results depend on the processing

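Leaving out each library in turn gave 0 to 481 calls in endothelial-like nuclei (0 without uninjured replicate 1 by edgeR, with 824 at an unadjusted p under 0.05), 513 to 1110 in stromal nuclei, 0 to 30 in immune-like nuclei (0 without uninjured replicate 2 and 0 without day 3 replicate 2 by edgeR, with 1505 and 211 at an unadjusted p under 0.05), 306 to 1192 over all non-myogenic nuclei and 115 to 428 for the interaction. Without the filter on low counts there were 716 endothelial, 1435 stromal and 2581 tissue calls. DESeq2 gave 16 immune, 1650 tissue and 127 interaction calls. In immune-like nuclei resolution 0.8 gave 64 calls, no integration 10 and the looser mitochondrial limit 0 (301 at an unadjusted p under 0.05). Removing the highest doublet scores gave 159 endothelial and 13 immune calls, capillary-like nuclei alone 154, stromal nuclei without a myogenic UMI 248, and keeping myogenic nuclei 297 tissue calls.

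Of the log2 changes of the 9 genes, 305 of their alternative values kept direction and call, 15 gained a call, 3 lost one (Vegfc in stromal nuclei without uninjured replicate 1, and Flt1 over all non-myogenic nuclei without uninjured replicate 1 or day 3 replicate 2) and 17 reversed, none of them called in either fit. Of the shares of nuclei with a UMI, thinned to 1000 UMIs or not thinned, 165 lay outside the interval at 500 UMIs and 150 inside, so that such shares hold only at the stated depth. Leaving out each library in turn gave log2 changes of -0.072 to 0.10 for Flt1 in endothelial-like nuclei (-0.010 without uninjured replicate 2), -0.067 to 0.55 for Flt4 and -0.56 to 0.040 for Nrp2 there, -0.19 to 0.34 for Vegfa and -0.0065 to 12.9 for Nrp1 in immune-like nuclei, and -0.21 to 0.10 for Nrp2 over all non-myogenic nuclei (0.0091 without uninjured replicate 2). The 12.9 is set against 1 uninjured library with 0 Nrp1 UMIs, depends on the prior count and is no bound. Flt1 in endothelial-like nuclei was -0.083 without the filter, -0.59 in capillary-like nuclei alone and -0.0205 without lymphatic-like nuclei, and Flt4 was -0.045 with the looser limit and -0.096 without the highest doublet scores. Nrp1 in stromal nuclei was 0.17 without nuclei with a myogenic UMI. Vegfa in immune-like nuclei was -0.0046 by DESeq2 and -0.36 at resolution 0.8, and Nrp2 over all non-myogenic nuclei 0.019 without the filter. The cause of these moves was not tested. The fit that leaves a group with 1 library assumes that it varies like the other. No paired analysis was possible because the labels carry no replicate numbers.

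Endothelial-like nuclei were 39 and 64 in the day 3 libraries and pericyte/SMC-like ones 4 and 9, so that levels in single vessel clusters at day 3 rest on few UMIs, and a difference that did not pass is not shown to be absent.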
